A study of Mus musculus with 6 samples.

Results

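Antisense transcripts that were well enough covered to be measured in the root-forming end of the mouse molar are described here. They were chosen by level: rows of the deposited gene table annotated as antisense whose mean expected count over the 6 libraries was at least 100. The imprinted transcripts Kcnq1ot1 and Airn were left out by name, while Igf2os, at an imprinted gene, was kept. The X-linked Tsix was also to be left out but has no row. This choice gave 41 of 1108 antisense rows, in a table of 22287 genes. An expected count is an estimated number of reads that need not be whole. First mandibular molars of C57BL/6 pups aged 7.5 days gave the RNA, which was isolated from the apical end alone. The mutant group carried Gli1-CreER and Arid1a fl/fl (3 libraries, replicates 3, 4 and 5), and the control group carried Arid1a fl/fl without Cre (3 libraries, replicates 2, 3 and 5). Both groups received tamoxifen on day 3.5 (1.5 mg for each 10 g the pup weighed). Gli1-CreER is a Cre recombinase made where Gli1 is expressed and activated by tamoxifen, so deletion was directed at Hedgehog-responsive cells and not at the whole tissue. Because CreER was present in the mutants alone, an effect of the recombinase and one of the deletion cannot be told apart. Whether each library is 1 pup or a pool is not stated, and every p-value reflects variation among the 6 libraries, which may be technical.

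An antisense transcript is read from the DNA strand opposite to another gene, here called its partner. Many such RNAs start at the promoter of a coding gene and run the other way, others cross the end of a convergent gene or lie in an intron. Most are noncoding, and many are short-lived in the nucleus, where the RNA exosome trims or degrades them. Some are known to influence the partner on the same chromosome, but for most no function is known. ARID1A is a subunit of the BAF complex, which moves nucleosomes at enhancers and promoters. The library kit is not stated to keep strand, so reads of a transcript and of its partner may not be separated where both are transcribed.

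Arid1a, the targeted gene, had 119.5, 134 and 130 CPM in mutants, against 209.5, 202 and 204 CPM in controls (log2 fold change -0.68, SE 0.07, adjusted p = 0.0129, edgeR quasi-likelihood test). CPM is the count scaled to a common library size by TMM, and the call was lost without control replicate 2 or 3. The libraries held 20453247 to 24255352 expected counts. The 41 antisense transcripts took 0.0663, 0.0650 and 0.0731% of all counts in mutant replicates 3, 4 and 5, against 0.0672, 0.0663 and 0.0623% in control replicates 2, 3 and 5. These shares overlapped between the groups. In summed CPM of fixed marker lists, dental epithelium lay at 71016 to 118160 in mutants and 182079 to 282293 in controls. Much of these sums was Amelx, with means of 48481 CPM in mutants and 146097 CPM in controls. Of the 18 epithelial markers, 13 had negative and 5 positive log2 fold changes (median -0.32). Amelx and Mmp20, 2 of the 18, were called, both lower in mutants. Erythroid markers lay at 2471 to 5654 in mutants and 1536 to 2058 in controls, with 0 of 9 called. Other called markers were Postn, Igfbp3 and Aldh1a2 of 8 for dental follicle, Phox2a of 5 for neurons and Myh11 of 6 for pericytes and smooth muscle, all higher in mutants, and Wnt10a of 8 for odontoblasts, lower in mutants. None was called for osteoblasts (8), endothelium (9), macrophages and osteoclasts (9), Schwann cells (7) or skeletal muscle (5). Sums for dental follicle, endothelium, macrophages and osteoclasts, Schwann cells and neurons were also higher in every mutant library, whereas those for odontoblasts, osteoblasts, skeletal muscle, and pericytes and smooth muscle overlapped. None of the listed markers in the table was at 0 in all libraries. The part of cell makeup in the values below was not tested, and in bulk tissue fewer cells of a type cannot be told apart from less RNA per cell.

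The transcripts covered a wide range of levels, and few of them carried most of the reads. Tug1, Brip1os, Dlx4os and Dnm3os held 58.1% of the reads of all 41, and the other 37 had means under 20 CPM in both groups. Levels per kilobase of annotated exon put Dlx4os first, at 27.9 CPM per kb in mutants and 34.8 in controls. Tug1 followed at 20.4 and 23.0 CPM per kb in mutants and controls, and Brip1os at 14.2 and 14.1. The median of the 41 was 2.31 CPM per kb in mutants and 2.46 in controls, and the lowest values were 0.864 for Igf2os in mutants and 0.885 for AC165962.1 in controls. Of the 41 names, 33 are clone or gene-model names with no known function given here. Just inside the threshold stood Gm12473, Gm35853 and Gm37422, with mean expected counts of 108, 106 and 102. Just outside stood 9530082P21Rik, Gm26811 and Gm9917, at 96.4, 93.7 and 90.7.

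**Figure D1:**
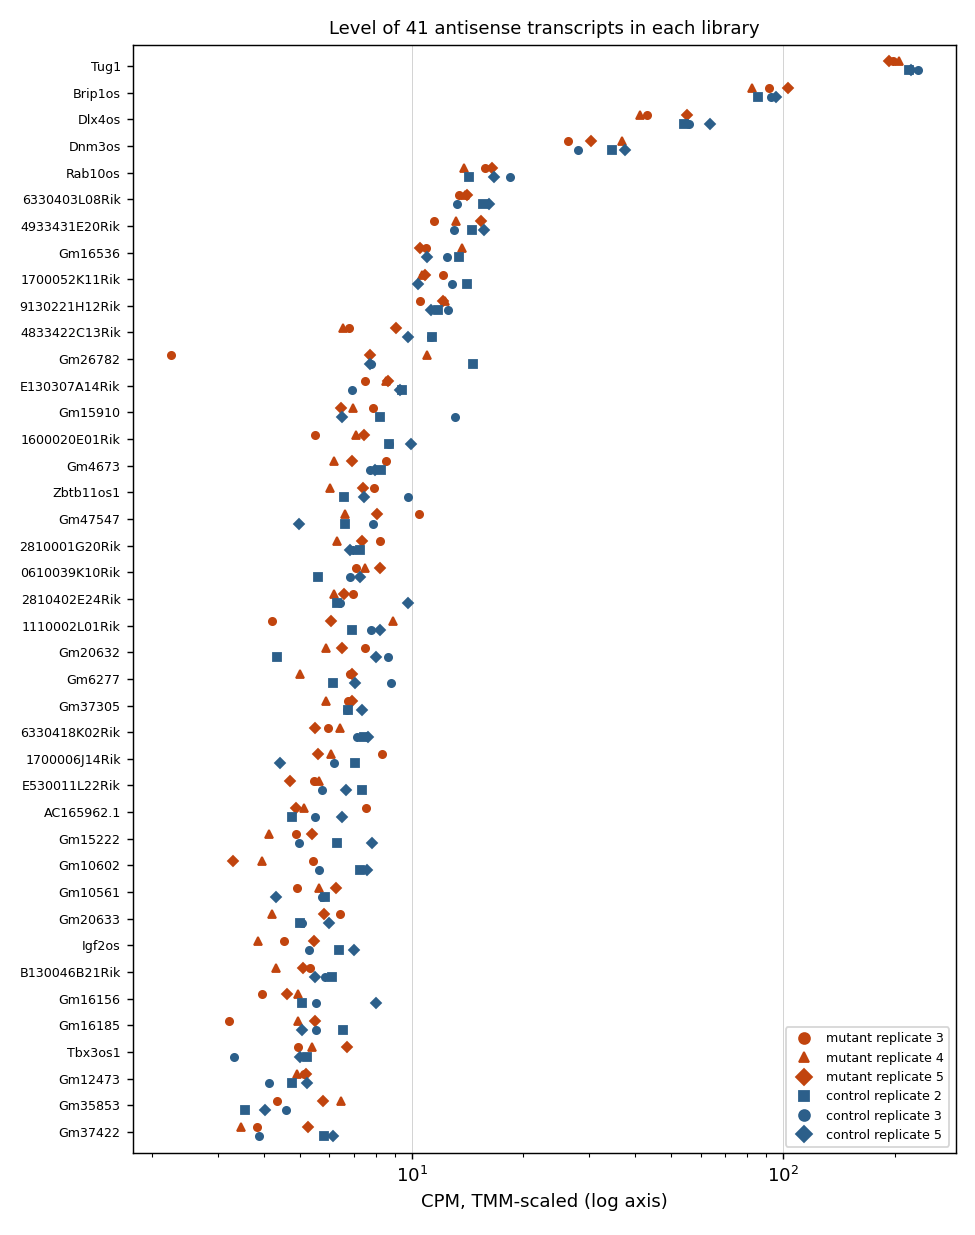
Level of each of the 41 antisense transcripts in each library, in TMM-scaled CPM on a log axis, with mutant libraries above control libraries in each row and symbols for the replicate numbers. Tug1, Brip1os, Dlx4os and Dnm3os stand apart at the top, and mutant replicate 3 of Gm26782 lies far below the other libraries of that transcript at 2.24 CPM.

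In their position, most of the transcripts faced the start or the end of a coding gene. A partner on the opposite strand was listed for 40 of the 41, and for 38 of them it was protein-coding. By annotated span, 17 overlapped the 5' end of the partner head to head and 10 its 3' end tail to tail. A further 8 lay inside the partner, 4 spanned it, and 2810001G20Rik ran away from Cox10 with 5' ends 16 bases apart. Gm47547 had no partner in the table. In 6 transcripts no annotated exon overlapped an exon on the opposite strand, and the median share of exonic bases that did was 16.7%, with 67.1% at most, in 1110002L01Rik. Values were whole, within 0.001, in 19.1% of cases for the 41 transcripts and in 53.8% for all genes. The latter share covers all 22287 rows, also those with few reads, and none was computed for genes of like count. All 6 values were whole for 7 transcripts, among them Dnm3os, Gm15910, Gm15222 and Gm16185, and none was whole for 32. A value that is not whole is an estimate in which reads were shared out among features.

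Sequences are shown for Tug1 and Dlx4os because they are the most abundant head-to-head transcripts, chosen after their values were seen. Promoter windows from RefSeq (GRCm38.p6, 250 bases before to 50 after the start, 5' to 3' on the strand of the transcript) were matched by symbol for 24 of the 41, with 31 windows. The motifs searched, on both strands, were the GC box GGGCGG, the TATA box with the letters TATAAA, the CCAAT box, and a Gli motif spelled GACCACCCA. Capitals mark a motif. The Tug1 window is chr11:3648765-3649064 on the minus strand and that of Dlx4os chr11:95144803-95145102 on the plus strand.
Tug1: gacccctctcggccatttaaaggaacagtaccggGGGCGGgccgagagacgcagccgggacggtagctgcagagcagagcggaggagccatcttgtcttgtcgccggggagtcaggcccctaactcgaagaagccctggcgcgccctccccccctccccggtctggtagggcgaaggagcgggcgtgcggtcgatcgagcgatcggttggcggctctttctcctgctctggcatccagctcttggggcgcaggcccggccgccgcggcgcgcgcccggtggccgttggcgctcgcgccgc
Dlx4os: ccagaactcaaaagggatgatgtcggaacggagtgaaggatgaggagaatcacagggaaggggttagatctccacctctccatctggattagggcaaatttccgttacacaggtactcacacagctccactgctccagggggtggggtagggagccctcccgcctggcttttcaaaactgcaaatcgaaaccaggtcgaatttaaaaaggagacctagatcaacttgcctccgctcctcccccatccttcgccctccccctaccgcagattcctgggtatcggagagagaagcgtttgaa
The start site of the Dlx4os window lies within 1 base of the annotated 5' end. The start site of the Tug1 window lies 859 bases inside the annotated 5' end of Tug1 and outside Morc2a, so it is not the start that overlaps Morc2a. The Tug1 window held 37 CpG dinucleotides and 1 GC box, and that of Dlx4os held 11 CpG and none of the motifs. No motif overlapped another in these windows. Over 32851 promoter windows of the same length the median was 7 CpG, and over the 31 windows of the antisense transcripts it was 14. GC boxes were found in 35.7% of all windows, the CCAAT box in 37.4%, the TATA box in 13.6% and the Gli motif in 0.253%. A match is a description of letters and not a binding site.

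Across the 41 transcripts, none passed the test between mutants and controls in either direction. The comparison asks whether loss of Arid1a in Gli1-expressing cells came with altered antisense RNA. All 41 passed the filter on low counts and entered the fit of 17305 genes, of which 1.86% were called at an adjusted p under 0.05 (0.659% higher and 1.20% lower, edgeR quasi-likelihood test). At an unadjusted p under 0.05, 0 of the 41 were higher and 7 were lower, against 7.13 and 7.83% of all genes tested. DESeq2 also called none, with 0 higher and 5 lower at an unadjusted p under 0.05, and limma-voom called none, with 0 and 7. The smallest adjusted p among the 41 was 0.146 with edgeR, for 4833422C13Rik, and over the alternatives it lay between 0.0804 (DESeq2, the same transcript) and 0.337 (edgeR without mutant replicate 4, 1110002L01Rik), apart from the fit by replicate number.

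Log2 fold changes, mutant over control, ran from -0.69 for Gm10602 to 0.44 for Gm35853, and the median absolute value was 0.19, against 0.15 over all genes tested and 0.12 over the 11783 genes whose mean count lay in the range of the 41. For 39 of the 41 the 95% interval of the log2 fold change lay within a 2-fold change in both directions, as it did for 79.5% of all genes. The exceptions were Gm26782, with an interval from -1.70 to 0.64, and Gm10602, from -1.19 to -0.18. In 20 of the 41 the interval lay within 1.5-fold, against 57.5% of all genes. Of the 11783 genes in the same range of counts, 11101 had intervals within 2-fold and 9188 within 1.5-fold.

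More of the transcripts had negative than positive fold changes. The log2 fold change was negative in 30 of the 41, against 48.0% of all genes tested, with a median of -0.15 against 0.01. Of lincRNA rows with a mean of at least 100, 46 of 75 were negative (median -0.04), of processed transcripts 42 of 64 (median -0.11), and of protein-coding rows 49.0% (median 0.00). The sign depended on the scaling. With library totals alone the median of all genes moved to 0.21 and that of the 41 to 0.05, and 16 of the 41 were then negative, while 30 lay below the median of all genes under either scaling. Libraries of the groups did not overlap in 8 of the 41, all lower in mutants, against 21.3% of all genes (10.6% higher and 10.8% lower). With library totals alone, 4 others did not overlap, all of them higher in mutants, and none was lower.

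**Figure D2:**
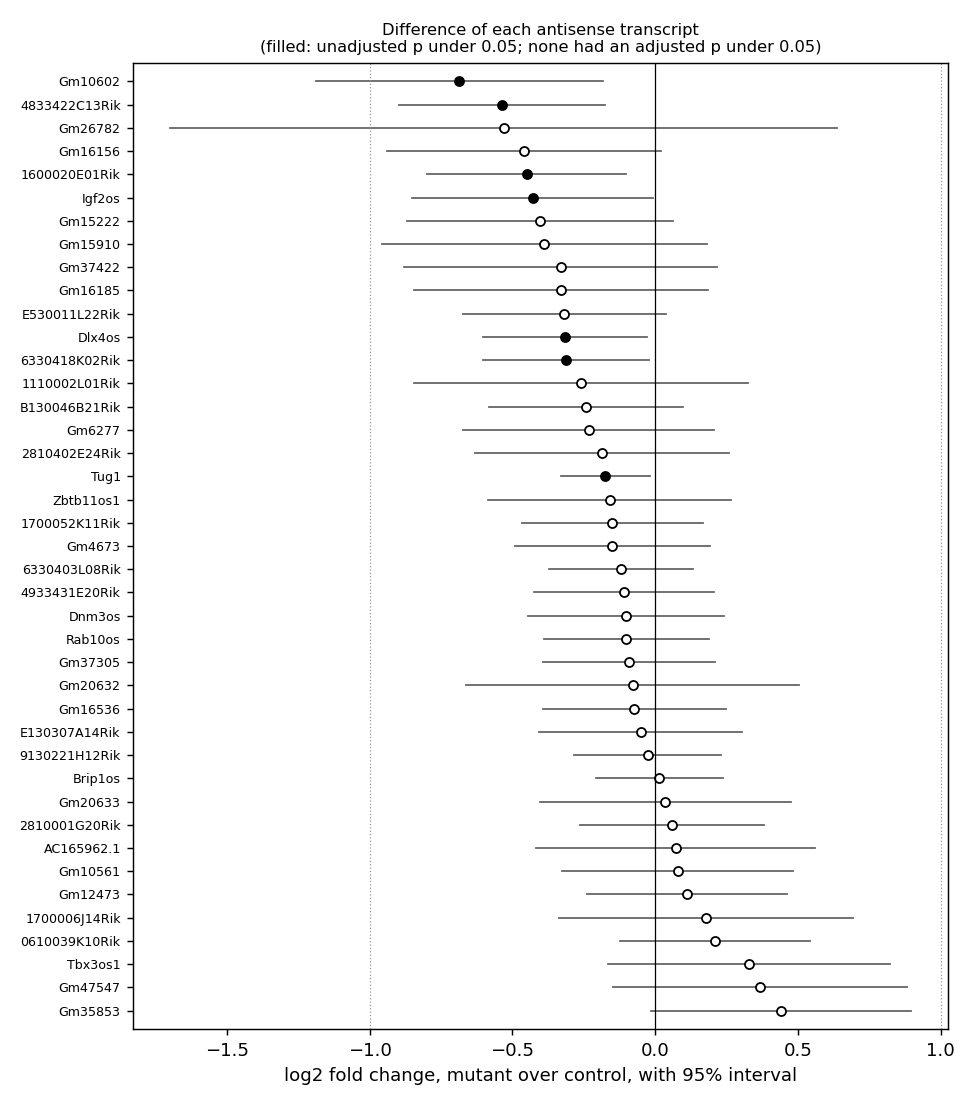
Log2 fold change, mutant over control, of each of the 41 antisense transcripts, with its 95% interval from the edgeR fit; filled points have an unadjusted p under 0.05. The 7 filled points all lie below 0, and dotted lines mark 2-fold changes, which 39 of the 41 intervals stay within.

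None of the most abundant transcripts was called between the groups, although Tug1 and Dlx4os had unadjusted p of 0.033 and 0.036 (edgeR). Tug1, a conserved long noncoding RNA that was first described in the mouse retina and is needed for male fertility in mice, is encoded at chr11:3639785-3649673 (mm10, minus strand) with its 5' end inside the coding gene Morc2a. It had 198, 205 and 193 CPM in mutants, against 219, 231 and 222 CPM in controls, so that each mutant library was below each control library. Its log2 fold change was -0.17 (SE 0.07, adjusted p = 0.273, edgeR), and with library totals alone it was 0.03. Morc2a, a chromatin-associated ATPase gene, had 64.6 ± 2.88 CPM in mutants and 73.4 ± 6.99 CPM in controls (SD, n = 3, adjusted p = 0.381, edgeR), with overlapping groups.

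Brip1os, on chromosome 11 from 86201370 to 86304443 on the plus strand, spans the whole of Ints2, which encodes an Integrator subunit, and also overlaps Med13, a Mediator kinase module gene. It had 91.9, 82.4 and 103 CPM in mutants, against 85.7, 92.8 and 95.9 CPM in controls. The groups overlapped fully (log2 fold change 0.02, SE 0.10, adjusted p = 0.962, edgeR). Its sign turned without mutant replicate 5 or control replicate 2. Ints2 had 20.3 ± 2.21 CPM in mutants and 23.9 ± 3.54 CPM in controls (SD, n = 3, adjusted p = 0.455, edgeR). Med13 had 145, 184 and 171 CPM in mutants, against 191, 198 and 198 CPM in controls. Each mutant library of Med13 was below each control library (log2 fold change -0.23, SE 0.10, adjusted p = 0.300, edgeR).

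Dlx4os starts inside Dlx4, a distal-less homeobox gene of the branchial arches, and runs away from it on chromosome 11 from 95145052 to 95159047. It had 43.0, 41.2 and 55.2 CPM in mutants, against 54.3, 55.7 and 63.5 CPM in controls. The groups overlapped through mutant replicate 5 alone (log2 fold change -0.32, SE 0.12, adjusted p = 0.283, edgeR). Dlx4 itself had 72.2, 76.9 and 90.4 CPM in mutants, against 89.8, 83.6 and 99.8 CPM in controls, with a log2 fold change of -0.19 (SE 0.11, adjusted p = 0.458, edgeR). In both genes mutant replicates 3 and 4 were the lowest libraries. Only 79 of the 1664 exonic bases of Dlx4os overlapped an exon of Dlx4.

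Dnm3os is a single-exon transcript inside an intron of Dnm3, a dynamin gene, on chromosome 1 from 162217623 to 162225550 on the plus strand. It is the precursor of the microRNAs miR-199a-2 and miR-214, and in mice it is needed for normal growth of the skeleton. Both microRNA genes lie within its annotated span, and their mature forms are shown because this transcript carries them, with the seed (bases 2 to 8) in capitals, from RefSeq on GRCm38.p6.
mmu-miR-199a-5p: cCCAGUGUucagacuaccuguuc
mmu-miR-199a-3p: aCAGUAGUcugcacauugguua
mmu-miR-214-5p: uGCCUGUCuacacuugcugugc
mmu-miR-214-3p: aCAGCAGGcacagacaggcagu
The 4 seeds differ from one another, and the mature forms were not measured in these libraries. Dnm3os had 26.3, 36.8 and 30.3 CPM in mutants, against 34.6, 28.0 and 37.6 CPM in controls. The groups overlapped (log2 fold change -0.10, SE 0.15, 95% interval from -0.45 to 0.24, adjusted p = 0.813, edgeR). Dnm3 had 22.3 ± 5.14 CPM in mutants and 23.1 ± 4.27 CPM in controls (SD, n = 3, adjusted p = 0.938, edgeR). No exon of Dnm3os overlapped an exon of Dnm3, and all of its counts were whole.

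Of the other abundant transcripts, Rab10os meets Rab10, a small GTPase gene of vesicle transport, tail to tail. It had 15.7, 13.8 and 16.5 CPM in mutants, against 14.3, 18.4 and 16.7 CPM in controls. 6330403L08Rik starts within Pdgfa, a platelet-derived growth factor ligand gene, and had 13.8 ± 0.350 CPM in mutants and 15.0 ± 1.54 CPM in controls (SD, n = 3). 4933431E20Rik, head to head with the glutathione transferase gene Gstm5, had 13.3 ± 1.95 CPM in mutants and 14.4 ± 1.36 CPM in controls. Gm16536, inside the beta-secretase gene Bace1, had 11.7 ± 1.69 CPM in mutants and 12.3 ± 1.20 CPM in controls. All 4 overlapped between the groups, with log2 fold changes from -0.12 to -0.07 and adjusted p from 0.679 to 0.862 (edgeR), and each of these fold changes was positive with library totals alone. Their partners Rab10, Pdgfa, Gstm5 and Bace1 had log2 fold changes from 0.01 to 0.07.

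Transcripts beside regulators of tooth and bone development gave no call either. Gm15222 lies inside Bmp4, a BMP ligand gene of the dental mesenchyme, without exon overlap. It had 4.87, 4.12 and 5.40 CPM in mutants, against 6.27, 4.96 and 7.84 CPM in controls (log2 fold change -0.40, SE 0.20, adjusted p = 0.407, edgeR). Bmp4 had 99.2, 70.7 and 68.3 CPM in mutants, against 95.6, 104 and 89.6 CPM in controls (log2 fold change -0.28, adjusted p = 0.427, edgeR). Tbx3os1, which starts within the T-box gene Tbx3, had 5.67 ± 0.899 CPM in mutants and 4.51 ± 1.03 CPM in controls (SD, n = 3, adjusted p = 0.538, edgeR). 1700006J14Rik lies inside Hmga2, a gene for an architectural chromatin protein, and had a log2 fold change of 0.18 (adjusted p = 0.771, edgeR). 9130221H12Rik lies inside the kinase gene Gsk3a and had one of -0.03 (adjusted p = 0.942). Igf2os, at the imprinted growth factor gene Igf2, had 4.52, 3.86 and 5.44 CPM in mutants, against 6.37, 5.29 and 6.97 CPM in controls. Its groups overlapped through mutant replicate 5 and control replicate 3 (log2 fold change -0.43, SE 0.18, adjusted p = 0.325, edgeR). Igf2 had 482 ± 21.6 CPM in mutants and 469 ± 60.4 CPM in controls (SD, n = 3, adjusted p = 0.903, edgeR).

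Other transcripts with a small p lay at convergent or head-to-head loci, apart from Gm35853, which spans its partner and is described with its ratio. 4833422C13Rik, tail to tail with Ssbp2 on chromosome 13 from 91701665 to 91741872, had 6.76, 6.51 and 9.04 CPM in mutants, against 11.3, 11.2 and 9.74 CPM in controls. Every mutant library was lower (log2 fold change -0.54, SE 0.16, adjusted p = 0.146, edgeR). Ssbp2, whose protein binds single-stranded DNA and LIM-domain cofactors, had 40.9, 37.9 and 42.3 CPM in mutants, against 32.3, 33.4 and 35.9 CPM in controls. Its log2 fold change was 0.25 (SE 0.08, adjusted p = 0.177, edgeR), of the opposite sign, and its groups did not overlap. At its 5' end 4833422C13Rik also overlaps Acot12, whose levels were very low. Acot12 had 0.464, 0.347 and 0.571 CPM in mutants, against 0.778, 0.983 and 0.762 CPM in controls. Its log2 fold change was -0.86 (SE 0.33, adjusted p = 0.262, edgeR), of the same sign as that of 4833422C13Rik, and its groups did not overlap. Of the exonic bases of 4833422C13Rik, 32.4% overlapped exons on the opposite strand.

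Gm10602, on chromosome 7 from 101836503 to 101842771, overlaps Folr2, the folate receptor beta gene of macrophages, and Inppl1, a lipid phosphatase gene. It had 5.41, 3.95 and 3.29 CPM in mutants, against 7.25, 5.62 and 7.56 CPM in controls, with no overlap (log2 fold change -0.69, SE 0.22, adjusted p = 0.179, edgeR). Folr2 had 3.17, 2.78 and 3.91 CPM in mutants, against 2.72, 2.11 and 1.58 CPM in controls (log2 fold change 0.61, SE 0.25, adjusted p = 0.302). Markers of macrophages and osteoclasts summed to 346 to 484 CPM in mutants and 309 to 342 CPM in controls, and their part in the Folr2 value was not tested. Inppl1 had 142 ± 8.32 CPM in mutants and 141 ± 15.6 CPM in controls (SD, n = 3).

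1600020E01Rik shares 75 exonic bases at its start with Pcbp1, an abundant RNA-binding protein gene, and had whole counts in all libraries. It had 5.49, 7.07 and 7.42 CPM in mutants, against 8.66, 8.66 and 9.96 CPM in controls (log2 fold change -0.45, SE 0.15, adjusted p = 0.206, edgeR). Each mutant library was below each control library, while Pcbp1 overlapped between the groups at 187 ± 5.46 CPM in mutants and 185 ± 9.49 CPM in controls (SD, n = 3). 6330418K02Rik, tail to tail with the sulfotransferase gene Gal3st4, had 5.95, 6.42 and 5.49 CPM in mutants, against 7.44, 7.12 and 7.62 CPM in controls (log2 fold change -0.31, SE 0.13, adjusted p = 0.294, edgeR). Gal3st4 had 55.6, 86.9 and 61.4 CPM in mutants, against 115, 118 and 102 CPM in controls (log2 fold change -0.72, SE 0.16, adjusted p = 0.0775, edgeR). Both were lower in every mutant library, and 65.6% of the exonic bases of 6330418K02Rik overlapped exons on the other strand.

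By arrangement, chosen as a split after the values were seen, all 10 tail-to-tail transcripts had negative log2 fold changes (median -0.29), as did 12 of 17 head-to-head ones (median -0.15) and 6 of 8 inside a partner (median -0.09). With library totals alone, 7 of the 10 and 5 of the 17 were negative, and 9 of the 10 were negative without mutant replicate 3, control replicate 2 or control replicate 5. No arrangement held a called transcript. The split also rests on taking the partner with the longest overlap. Of the tail-to-tail transcripts, Gm10602, 1110002L01Rik and 4833422C13Rik are head to head with another opposite-strand gene (Inppl1, Asxl2 and Acot12). So are E530011L22Rik and B130046B21Rik, with Zfp651 and Ddn. This split was not tested.

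The partners had fold changes of both signs. Of 38 tested, 20 were negative and 18 positive, with a median of -0.02, and 14 did not overlap between the groups, 7 in each direction, against 21.3% of all genes. A single partner was called, against 1.86% of all genes. This was Gm20634, a processed transcript that faces Gm20633 in a histone gene cluster on chromosome 3. It had 14.0, 14.8 and 14.0 CPM in mutants, against 25.4, 31.7 and 26.1 CPM in controls (log2 fold change -0.96, SE 0.11, adjusted p = 0.0133, edgeR). Without control replicate 2 this partner no longer passed (adjusted p = 0.0506), while the other left-out libraries gave adjusted p from 0.0290 to 0.0470 (edgeR). Gm20633 had 6.42, 4.21 and 5.80 CPM in mutants, against 5.01, 5.06 and 5.99 CPM in controls, overlapping fully (log2 fold change 0.04, SE 0.19, adjusted p = 0.954). Of the exonic bases of Gm20633, 31.2% overlapped exons on the opposite strand. Gm20634 overlaps the histone gene Hist2h2aa1 on its own strand, so reads may be shared between them and the source of the Gm20634 call is uncertain. Hist2h2aa1 had a log2 fold change of -0.59 (adjusted p = 0.399, edgeR).

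**Figure D3:**
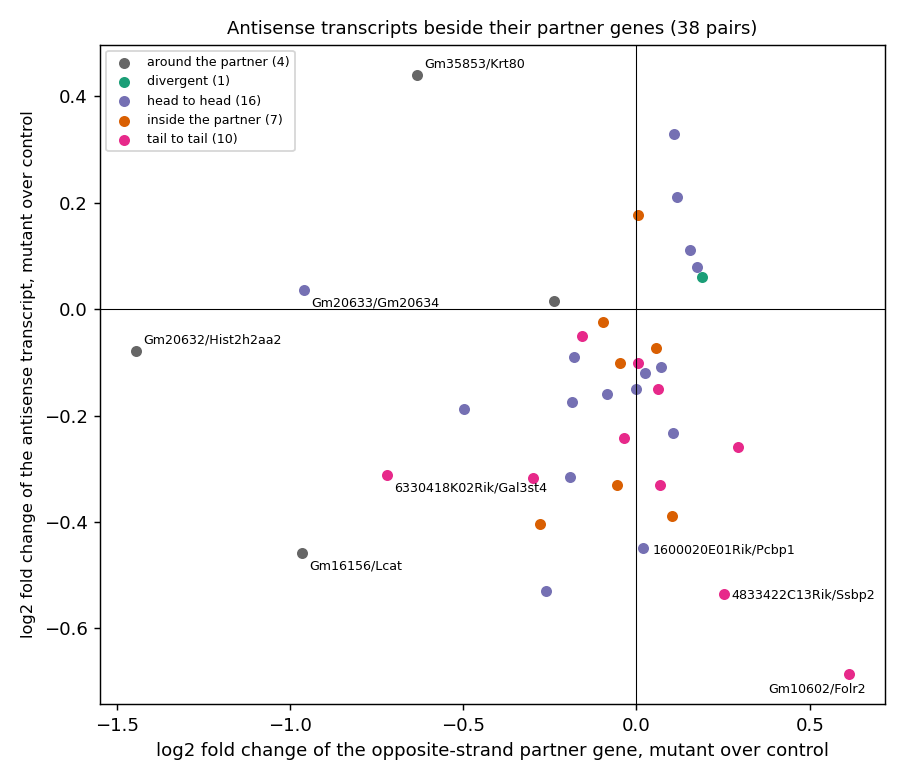
Log2 fold change, mutant over control, of each antisense transcript (vertical axis) against that of its opposite-strand partner (horizontal axis), 38 pairs coloured by arrangement. Gm20633 lies near 0 while its partner Gm20634 stands at -0.96, and Gm10602 and 4833422C13Rik lie below 0 with partners above 0.

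The ratio of antisense to partner reads, which does not depend on library scaling, separated the groups in 7 of 40 pairs. It was taken as log2 of (antisense count + 1) over (partner count + 1). An exact two-sided permutation test of 3 against 3 libraries cannot go below p = 0.1, and groups that do not overlap always give that value. The 7 were picked for not overlapping, so this p adds nothing to the choice. The share of such ratios over other opposite-strand pairs was not computed, so 7 of 40 has no background beside it. Fewer reads than the partner were found for 32 transcripts in both groups, with medians of 21.9 antisense reads per 100 partner reads in mutants and 23.2 in controls.

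In 4 pairs the ratio was lower in mutants. For Gm10602 over Folr2 it was 0.76, 0.51 and -0.26 in mutants, against 1.40, 1.39 and 2.20 in controls. For 4833422C13Rik over Ssbp2 it was -2.59, -2.53 and -2.22 in mutants, against -1.51, -1.57 and -1.87 in controls, a difference of -0.80. These had the largest differences among the 4. For 1600020E01Rik over Pcbp1 the mean was -4.82 ± 0.25 in mutants and -4.34 ± 0.06 in controls (SD, n = 3). Gm16185, inside the mitochondrial carrier gene Slc25a36 and free of exon overlap, had ratios of -4.29, -3.67 and -3.72 in mutants, against -3.54, -3.64 and -3.61 in controls, where mutant replicate 3 stood apart from the others. With the partner of most reads in place of the one with the longest overlap, the difference for Gm10602 was -0.72 over Inppl1, against -1.33 over Folr2, and its groups then overlapped. For Igf2os the partner with the longest overlap was Gm49394, with a difference of 1.001 and overlapping groups, and over Igf2 the difference was -0.48 with no overlap, so the direction turned with the choice of partner. Gm49394 had a mean of 5.16 expected counts, too few to enter the fit.

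In the other 3 pairs the ratio was higher in mutants, and the partner had a negative fold change in each. For Gm35853 over Krt80, a keratin gene that it spans on chromosome 15, the ratio was -1.61, -1.62 and -1.72 in mutants, against -2.74, -2.50 and -2.94 in controls, a difference of 1.08. Gm35853 had 4.33, 6.46 and 5.75 CPM in mutants, against 3.55, 4.59 and 4.03 CPM in controls, overlapping through mutant replicate 3 (log2 fold change 0.44, SE 0.20, adjusted p = 0.350, edgeR). Krt80 had 13.3, 20.0 and 19.1 CPM in mutants, against 23.8, 26.1 and 31.2 CPM in controls (log2 fold change -0.63, SE 0.17, adjusted p = 0.120). The sums of epithelial markers, of which Amelx made up much, were lower in every mutant library. Their part in the Krt80 value was not tested.

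For Gm20633 over Gm20634 the ratio was -1.12, -1.81 and -1.27 in mutants, against -2.33, -2.64 and -2.12 in controls. For Gm20632, which spans the histone gene Hist2h2aa2 in the same cluster, it was 1.25, 2.37 and 0.64 in mutants, against -0.14, 0.34 and -0.50 in controls. Gm20632 itself overlapped between the groups at 6.60 ± 0.806 CPM in mutants and 6.98 ± 2.32 CPM in controls (SD, n = 3). Hist2h2aa2 has a near-identical copy, Hist2h2aa1, on the other side of the cluster, so its counts and this ratio are uncertain. Because Gm20634 overlaps Hist2h2aa1 on the same strand, the ratio over Gm20634 is uncertain too.

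**Figure D4:**
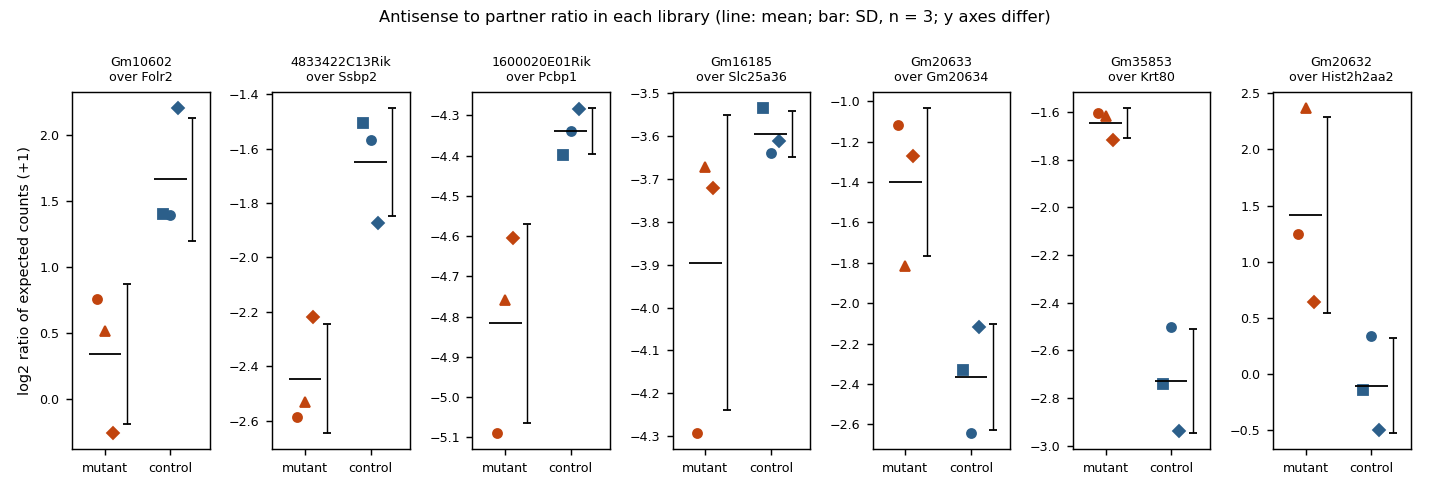
Log2 ratio of antisense to partner expected counts (1 added to each) in each library for the 7 pairs whose groups do not overlap, mutants left of controls, with the mean as a line and the SD as a bar (n = 3); the vertical axes differ. The ratio is lower in mutants in the 4 panels on the left and higher in the 3 on the right.

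Replicates of a group varied to different degrees among the transcripts. The coefficient of variation within mutants ran from 2.54% for 6330403L08Rik to 63.2% for Gm26782, with a median of 13.7%, and within controls from 2.85% for Tug1 to 39.4% for Gm26782, with a median of 13.05%. Gm26782, head to head with the telomerase-associated gene Tep1, had 2.24, 10.97 and 7.73 CPM in mutants, against 14.6, 7.77 and 7.73 CPM in controls (log2 fold change -0.53, SE 0.51, adjusted p = 0.697, edgeR). It was the least precise of the 41. Gm15910, inside the methionine sulfoxide reductase gene Msrb3, varied mostly in controls, with 7.84, 6.94 and 6.45 CPM in mutants, against 8.22, 13.1 and 6.48 CPM in controls. The others whose groups did not overlap were E530011L22Rik, B130046B21Rik and Gm16156, with log2 fold changes of -0.32, -0.24 and -0.46 and adjusted p of 0.391, 0.501 and 0.353 (edgeR). Gm47547, the transcript without a partner, had 10.47, 6.59 and 8.03 CPM in mutants, against 6.62, 7.86 and 4.95 CPM in controls, which overlapped (log2 fold change 0.37, SE 0.22, adjusted p = 0.503, edgeR).

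Genes that process and remove such RNAs were also read from the fit. Of 38 listed genes of the nuclear exosome, its adaptors, Integrator and the cap-binding complex, 34 were tested. Of these, 0 were called higher and 0 lower, against 1.86% of all genes called (median log2 fold change -0.04, against 0.01). At an unadjusted p under 0.05, 0 were higher and 6 lower with edgeR, 0 and 4 with DESeq2 and 0 and 5 with limma-voom, and these tools called none either. Over all genes tested with edgeR the shares at that threshold were 7.13% higher and 7.83% lower. The smallest p belonged to the exosome core gene Exosc2, with a log2 fold change of -0.28 (SE 0.08, adjusted p = 0.148, edgeR). At an adjusted p of 0.213 and 0.223, the polymerase gene Tent4b and the Integrator gene Ints6 came next. Of 15 genes that bind, edit or sense double-stranded RNA, 0 were called higher and 0 lower (median log2 fold change 0.03). By edgeR, DESeq2 and limma-voom, 1 was higher and 1 lower at an unadjusted p under 0.05, and none of these tools called any. Stau1, which encodes a double-stranded RNA-binding protein, had a log2 fold change of -0.23 (adjusted p = 0.149, edgeR), and Eif2ak2, the kinase PKR, had one of 0.35 (adjusted p = 0.263).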

How the data were processed

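Per the labels, RNA integrity numbers were above 9 and reads were single-end. The expected counts, 1 per gene and library and not normalized, were made by the authors and deposited in a table named for Partek's expectation-maximisation quantification. The normalized signal in a second table was also made by the authors, who deposited it scaled to an equal 75th percentile in each library; it served 1 alternative. STAR 2.6.1d, Partek and mm10 are named per the submitters' processing notes, with no role or order. Names, chromosomes and starts of all 22287 rows match GENCODE M21, which supplied exons.

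Expected counts were rounded, filtered with filterByExpr, scaled by TMM (factors 0.872 to 1.11) and tested with edgeR 4.0.16 in R 4.3.3 (glmQLFTest, Benjamini-Hochberg over 17305 genes, called under 0.05). The SE follows from the F statistic and the log2 fold change. The fit was tested on simulated data. No pair of replicates came near counting noise (chi-square per degree of freedom 24.3 to 44.0). Partners are opposite-strand rows with the longest overlap, or with a 5' end within 1000 bases.

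The transcripts and lists were chosen with earlier results of these data known. Transcripts were named for a call, for being among the 8 highest in level or the 8 with the smallest p, for lying next to the threshold, for a partner ratio that separated the groups (at most 8), or for a listed name (Igf2os, Dnm3os), and others were chosen after their values were seen. Alternatives used DESeq2 1.42.0, limma 3.58.1, other scalings, filters and thresholds, the replicate block, and each library left out.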

Additional observations from a re-analysis of the deposited data

How the results depend on the processing

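Under every scaling, filter, tool and left-out library tried, 0 of the 41 antisense transcripts were called higher and 0 lower at an adjusted p under 0.05. None was called either with a minimum mean of 200, or at an adjusted p under 0.1 in the main edgeR fit. The other fits were not read at 0.1, and the smallest adjusted p was 0.0804 with DESeq2. Without mutant replicate 3 or 5 it was 0.0846 and 0.0881 (edgeR). With a minimum mean of 50 in place of 100, which takes in 104 transcripts, 2 were called lower, Gm13010 (log2 fold change -2.63, adjusted p = 0.00742, edgeR) and Lrp8os2 (-1.32, adjusted p = 0.0306). Over all genes, 322 were called (114 higher, 208 lower), 520 with library totals alone (411 and 109), 874 with DESeq2 and 672 at an adjusted p under 0.1, and 11 to 243 with 1 library left out, which leaves fewer samples.

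Replicates 3 and 5 exist in mutants and in controls. Libraries of the same number deviated from their group means with correlations of 0.20 and -0.15. Over all pairs of a mutant and a control library these ran from -0.39 to 0.24. With so few libraries they cannot show whether a number marks a pair, and the labels do not say. With the replicate block, 90 genes and none of the 41 were called (smallest adjusted p = 0.372, edgeR). Arid1a and Gm20634 then lost their calls (adjusted p = 0.0769 and 0.0610), 9 of the 10 tail-to-tail transcripts were negative, and the log2 fold change was 0.21 for Gm35853, -0.20 for Dnm3os, -0.13 for Gm16536, -0.25 for Gm20632, 0.15 for Gm20633 and -0.12 for Gm37422.

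For Igf2os the log2 ratio to its partner differed, mutants minus controls, by 1.001 over Gm49394 and by -0.48 over Igf2. Settings were run one by one for 19 named transcripts. With library totals alone the log2 fold change was 0.028 for Tug1, 0.10 for Dnm3os, 0.11 for Rab10os, 0.086 for 6330403L08Rik, 0.10 for 4933431E20Rik, 0.12 for Gm16536 and 0.13 for Gm20632. With 1 library left out it ran from -0.069 to 0.091 for Brip1os, from -0.24 to 0.0070 for Dnm3os, from -0.32 to 0.11 for Gm20632 and from -0.10 to 0.19 for Gm20633. Apart from the scaling, the cause was not tested. Intervals cover the spread between these libraries.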
